A study of Drosophila melanogaster with 8 samples.

Results

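Proteasome subunits were examined in cells of the Drosophila melanogaster embryo in which the E10 enhancer was active. The gene table was searched for symbols that begin with Pros and a number, Prosalpha, Prosbeta, Rpt and a number or Rpn and a number. This gave 41 of 15182 fly genes. Of these, 28 encode constitutive subunits: 7 alpha and 6 beta subunits of the 20S core, 5 Rpt and 10 Rpn subunits of the 19S regulatory particle. The other 13 are paralogs of these subunits, several of them known in the fly for expression in the testis. Some constitutive subunits, beta4 and Rpt5 among them, carry other symbols in the table and are given separately.

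The enhancer E10 belongs to ovo (shavenbaby), the gene whose product directs the formation of cuticle hairs in the epidermis. Per the labels, flies with the E10::EGFP transgene laid eggs over 1 h, the embryos developed at 25 °C for some 11 h to early stage 14, and EGFP-positive cells were sorted after dissociation. RNA was sequenced from 4 independent sorts, with 1 library of EGFP-positive cells (GFP-positive) and 1 of cells from the parent scatter gate (all cells) from each, so that each group had 4 libraries. The sort gates had been set on cells of wild type embryos. The all-cell libraries therefore hold EGFP-positive cells too, although the series' design text calls that group GFP-negative. Both groups carry the reporter as far as the labels say, no library comes from single animals, and a cell was counted as positive by the fluorescence that the enhancer drove.

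The 26S proteasome degrades proteins that carry chains of ubiquitin. Its 20S core is a barrel of alpha rings, which gate the entrance, and beta rings, of which beta1, beta2 and beta5 cut peptide bonds. The 19S particle on the ends of the barrel binds ubiquitin chains, removes them and unfolds the substrate. The Rpt subunits form its ring of ATPases, Rpn1, Rpn2, Rpn10 and Rpn13 scaffold or receive substrates at the base, and the other Rpn subunits form the lid, in which Rpn11 is the deubiquitinating enzyme. Every cell is known to need both particles, and in mammals and flies their genes can be raised together by transcription factors of the cap'n'collar family.

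The sort was first checked on its targeted gene and on cell type markers. In sorts 1 to 4, ovo stood at 320, 239, 220 and 268 FPKM (fragments per transcript length and library depth) in the GFP-positive libraries and at 56.0, 32.1, 46.7 and 31.7 FPKM in all cells. All 10 epidermal markers were called higher in GFP-positive cells, and their summed level was 9063 to 14308 FPKM there against 719 to 1611 FPKM. Both tracheal markers were called higher as well, 70.1 to 87.0 FPKM in sum against 24.6 to 32.3 FPKM. Markers of neurons (5 of 5), neuroblasts (3 of 3), glia (3 of 3), muscle (5 of 5), fat body (3 of 3) and endoderm (3 of 3) were called lower. The sums of these lists in GFP-positive cells against all cells were 79.2 to 230 against 469 to 927 FPKM for neurons, 7.65 to 16.0 against 61.3 to 142 FPKM for neuroblasts, 9.54 to 17.5 against 75.1 to 99.5 FPKM for glia, 292 to 509 against 1637 to 2663 FPKM for muscle, 25.0 to 71.2 against 371 to 836 FPKM for fat body and 34.3 to 66.1 against 90.2 to 144 FPKM for endoderm. The gene srp is in both the endoderm and the hemocyte list. It made up most of the endoderm sum, at 30.2 to 58.9 FPKM in GFP-positive cells and 61.2 to 98.8 FPKM in all cells. Of the 3 hemocyte and 3 germ cell markers, 2 in each list were tested, and all of these were called lower. The others, Hml and nos, were too low to be tested. No marker of these lists was at 0 throughout a group. These differences in cell makeup move with every result on the proteasome genes, and their part in those results was not tested. In such bulk samples, fewer cells of a type and less RNA per cell cannot be told apart.

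Most constitutive proteasome subunits were lower in GFP-positive cells than in all cells. Among those matched by symbol, the 20S core was lower by more than the 19S particle, with median log2 fold changes of -1.17 and -0.63. The subunits outside the match did not follow this order. There, beta4 of the core was at -0.51, and Sem1, Rpt5, Rpn8 and Rpn13 of the 19S particle at -1.11, -0.88, -0.81 and -0.48. With limma on log2(FPKM + 1) and p-values adjusted over the 10943 genes tested, 25 of the 28 constitutive subunits fell and 0 rose, while the background over all genes was 38.7% called lower and 11.6% called higher. Without adjustment, 26 subunits had a limma p under 0.05 in the lower direction and 0 in the higher. The share of all genes at that unadjusted level was not counted, so these counts have no background. The median log2 fold change of the 28 subunits was -0.83 and that of all genes tested was -0.47, so that the subunits lay -0.36 from the median gene. The log2 fold changes of the subunits spanned -1.58 to -0.33 with an SD of 0.33, against an SD of 1.01 over all genes. GFP-positive and all-cell libraries did not overlap for 21 of the 28 subunits, all with the GFP-positive libraries lower, which was so for 34.8% of all genes tested. In 25 of 28 the GFP-positive library was the lower one in all 4 sorts, against 51.1% of all genes tested.

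The count of calls depended on how the libraries were scaled, the order of the classes did not. Scaling that brings the libraries to a common level moved the median of all genes from -0.47 to -0.05 (TMM-like scaling), -0.09 (quantile normalization) or -0.13 (upper quartile), and scaling on the summed ERCC spike-in RNA moved it to -1.26. Over the whole table, lower and higher calls numbered 4233 and 1265 as deposited, 2214 and 2257 under TMM-like scaling, 2561 and 2036 under quantile normalization, 2569 and 2010 under upper quartile scaling and 5714 and 309 under ERCC scaling. Of the 28 subunits, 11, 13, 12 and 28 were then called lower, against 20.2%, 23.4%, 23.5% and 52.2% of all genes. None was called higher, against 20.6%, 18.6%, 18.4% and 2.82% of all genes. Against a minimum log2 fold change of 1 (limma's treat), 0 subunits were called in either direction, and 4.62% of all genes were lower and 2.98% higher. Relative to the median gene, the subunits' median stayed between -0.45 and -0.30. The same 11 subunits were called lower under the deposited values and all 4 scalings: Prosalpha1, Pros25, Pros29, Prosalpha5, Pros35, Prosalpha7, Prosbeta1, Prosbeta5, Rpn7, Rpn9 and Rpn11.

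**Figure D1:**
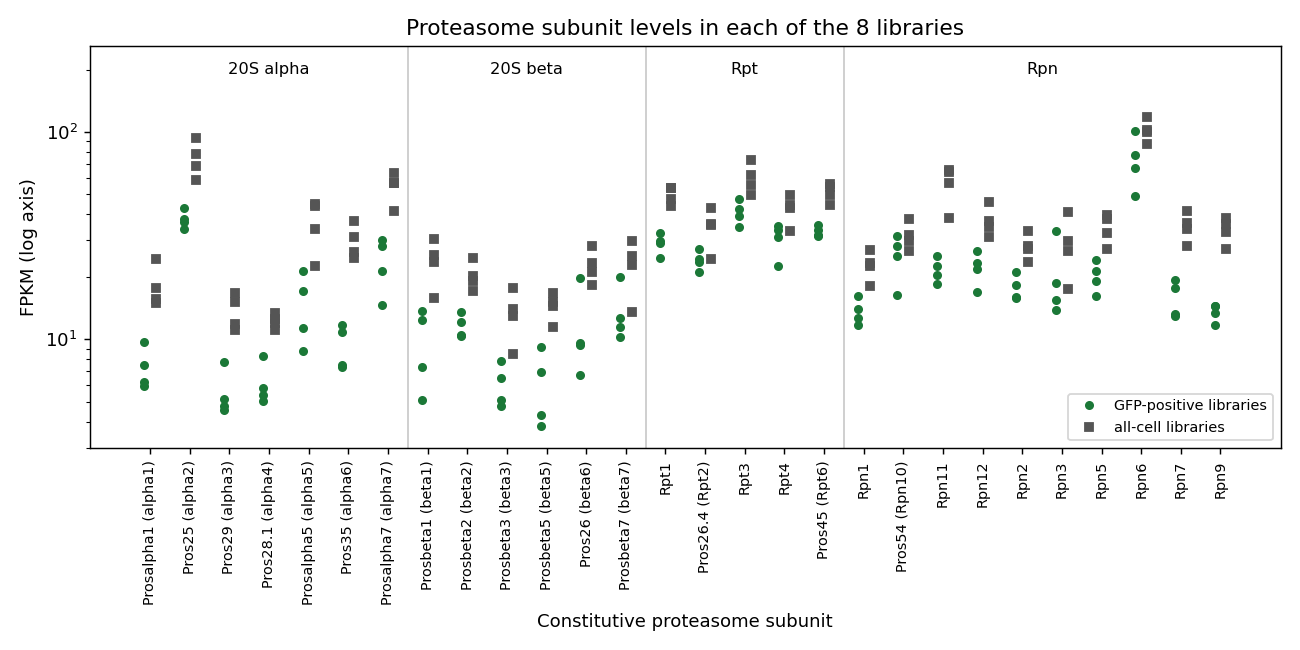
FPKM of each of the 28 constitutive subunits in every library, on a log axis, with 4 GFP-positive libraries as circles and 4 all-cell libraries as squares. In 21 of the 28 subunits all circles lie below all squares.

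All 13 subunits of the 20S core that the symbols matched were called lower, with a median log2 fold change of -1.17, that is -0.70 from the median gene. Under TMM-like scaling and quantile normalization 8 of the 13 remained below the threshold of adjusted p 0.05, under upper quartile scaling 9, and under each of them all 13 lay below the median gene. The alpha ring accounted for 7 of 7 with a median of -1.19 and no overlap between the groups in any of the 7. The matched beta subunits accounted for 6 of 6 with a median of -1.01, and the groups were apart in 4. The seventh beta subunit, beta4 (CG17331), was not matched and did not pass (log2 fold change -0.51, limma adjusted p = 0.12).

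Pros35, the alpha6 subunit, had the most negative log2 fold change of all 28. In sorts 1 to 4 it stood at 10.8, 7.54, 11.8 and 7.34 FPKM in GFP-positive cells and at 26.5, 31.2, 24.7 and 37.2 FPKM in all cells. Every all-cell library held at least 24.7 FPKM and no GFP-positive library more than 11.8, so the groups were far apart. Its mean in GFP-positive cells was 31.3% of that in all cells (9.37 ± 2.26 against 29.9 ± 5.57 FPKM, SD, n = 4 each), and its log2 fold change was -1.58 (limma SE 0.21, adjusted p = 1.4e-04).

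Prosalpha5, the alpha5 subunit, was at 11.3, 8.79, 17.1 and 21.5 FPKM in GFP-positive cells and at 44.2, 33.9, 22.7 and 44.8 FPKM in all cells. The highest GFP-positive library, from sort 4, came close to the lowest all-cell library, from sort 3, without reaching it. The log2 fold change was -1.28 (limma SE 0.29, adjusted p = 0.00376).

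Pros25, the alpha2 subunit, was the most abundant member of the alpha ring. Its level was 34.2, 36.7, 42.8 and 38.2 FPKM in GFP-positive cells and 78.2, 68.4, 58.6 and 93.1 FPKM in all cells. The GFP-positive libraries were close to each other and all below the all-cell libraries, with a log2 fold change of -0.94 (limma SE 0.16, adjusted p = 7.0e-04). Its locus on dm3 overlaps that of Aos1, a subunit of the SUMO-activating enzyme.

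Prosalpha7, the alpha7 subunit, followed in abundance with 30.1, 21.3, 14.7 and 28.2 FPKM against 63.4, 56.6, 41.7 and 56.8 FPKM. Sort 3 gave the lowest value in both groups, and the groups did not overlap. In limma it differed by -1.21 (limma SE 0.22, adjusted p = 0.00119).

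The remaining alpha subunits were Prosalpha1 (alpha1), Pros29 (alpha3) and Pros28.1 (alpha4). Their means in GFP-positive cells were 7.35, 5.56 and 6.15 FPKM and their log2 fold changes -1.19, -1.17 and -0.91, each with the groups apart. Prosalpha1 carries a limit, since its values and those of CG30382, which RefSeq names Prosalpha1R, differed by at most 2.32% in any library. The fragments of these near-identical copies could not be assigned to one or the other, and both levels are uncertain.

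Among the beta subunits, the 3 catalytic ones all fell. Prosbeta1, with the caspase-like site, was at 12.4, 5.07, 7.32 and 13.7 FPKM in GFP-positive cells and at 23.6, 15.8, 25.4 and 30.5 FPKM in all cells. Sort 2 was the lowest in both groups, and the highest GFP-positive library stayed below the lowest all-cell library. Its log2 difference was -1.28 (limma SE 0.30, adjusted p = 0.00475).

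Prosbeta5, with the chymotrypsin-like site, was at 6.96, 4.29, 3.80 and 9.17 FPKM against 15.1, 11.4, 16.8 and 14.5 FPKM. The groups did not overlap, although the GFP-positive values spread by more than those of all cells. The fitted log2 difference was -1.19 (limma SE 0.27, adjusted p = 0.00378). Prosbeta2, with the trypsin-like site, had the smallest SE of the 3, at 12.1, 10.4, 13.5 and 10.4 FPKM against 17.1, 20.3, 19.2 and 24.7 FPKM. It differed by -0.75 (limma SE 0.18, adjusted p = 0.00501), with no overlap. Under TMM-like, quantile and upper quartile scaling the call of Prosbeta2 was lost, while those of Prosbeta1 and Prosbeta5 held.

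Of the structural beta subunits, the groups met in Pros26 and Prosbeta7. Pros26, the beta6 subunit, was at 6.69, 9.63, 9.38 and 19.8 FPKM in GFP-positive cells and at 23.3, 18.3, 21.1 and 28.3 FPKM in all cells. Only the GFP-positive library of sort 4 lay above an all-cell library, that of sort 2. The log2 fold change was -1.03 (limma SE 0.28, adjusted p = 0.0113), a call lost when sort 1 was left out (adjusted p = 0.0607).

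Prosbeta7, the beta7 subunit, had the highest mean of the matched beta subunits over all 8 libraries, although Prosbeta1 was higher in all cells. It was at 11.4, 10.3, 12.6 and 19.9 FPKM against 25.3, 22.9, 13.5 and 29.7 FPKM. The GFP-positive library of sort 4 was again the high one, and the all-cell library of sort 3 was low, so that the groups overlapped. The log2 fold change of -0.70 (limma SE 0.27, adjusted p = 0.0469) missed the threshold when any library other than the GFP-positive one of sort 4 or the all-cell one of sort 3 was left out, with adjusted p-values of 0.0865 to 0.136. Prosbeta3, the beta3 subunit, had means of 6.06 ± 1.43 and 13.2 ± 3.76 FPKM (SD, n = 4 each) and differed by -0.99. It lost its call without sort 2 (limma adjusted p = 0.0622).

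The Rpt subunits matched by symbol had the median nearest to that of all genes. All 5 were called lower, but their median log2 fold change of -0.54 lay -0.08 from that of all genes tested. This distance was -0.29 under quantile normalization and -0.21 under ERCC scaling, but 0.01 under TMM-like and -0.004 under upper quartile scaling. Under TMM-like or upper quartile scaling 0 of 5 were called lower, and 2 of 5 under quantile normalization. Rpt3, the most abundant of these 5, stood at 42.5, 39.1, 34.6 and 47.3 FPKM in GFP-positive cells and at 55.8, 62.0, 49.8 and 73.5 FPKM in all cells. The groups stood apart by a small gap between sort 4 of the one and sort 3 of the other. Its log2 fold change was -0.54 (limma SE 0.16, adjusted p = 0.0146), and the call was lost without the all-cell library of sort 4 (adjusted p = 0.0524).

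Pros45, the Rpt6 subunit, was even among the GFP-positive libraries, with 33.6, 31.3, 35.6 and 31.9 FPKM against 54.2, 56.0, 44.5 and 49.6 FPKM. The groups did not overlap, and the log2 fold change was -0.61 (limma SE 0.13, adjusted p = 0.00299). Rpt1 had 29.1 ± 3.34 against 49.6 ± 4.81 FPKM (SD, n = 4 each) and the most negative log2 fold change of these 5, -0.75.

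Rpt4 and Pros26.4, the Rpt2 subunit, were at the edge of the test. Rpt4 was at 31.0, 35.3, 22.5 and 33.5 FPKM in GFP-positive cells and at 42.9, 44.5, 33.3 and 49.5 FPKM in all cells. Sort 3 was low in both groups, and the all-cell library of that sort lay below 2 GFP-positive libraries. Its log2 fold change of -0.47 (limma SE 0.18, adjusted p = 0.0494) lay at the median of all genes tested and turned to 0.03 under TMM-like scaling.

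Pros26.4 was at 24.4, 23.5, 21.0 and 27.3 FPKM against 35.7, 36.0, 24.3 and 43.0 FPKM. Here too the all-cell library of sort 3 lay within the GFP-positive range. The log2 fold change of -0.49 (limma SE 0.18, adjusted p = 0.0449) became 0.01 under TMM-like scaling. Leaving out any of 5 libraries ended the call of Rpt4, and leaving out any of 6 ended that of Pros26.4.

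**Figure D2:**
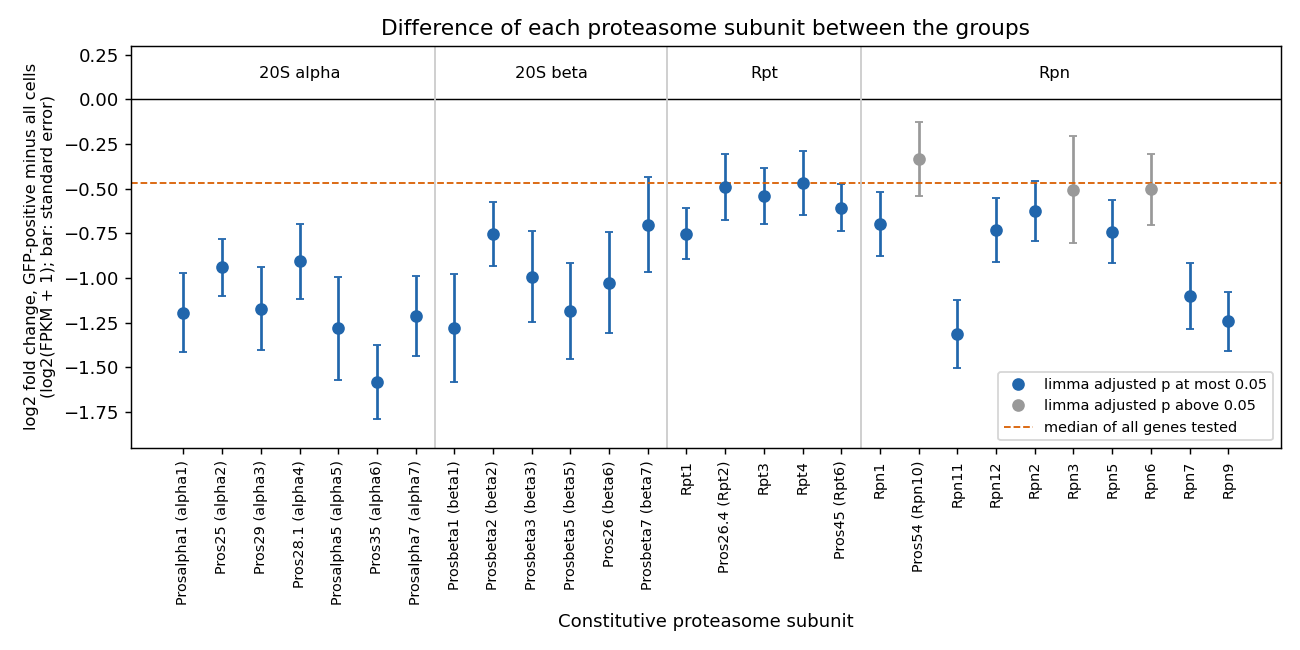
Log2 fold change of each constitutive subunit on the log2(FPKM + 1) scale, GFP-positive minus all cells, with its limma standard error as a bar and n = 4 libraries a group. The 13 matched core subunits lie below the dashed median of all genes tested (-0.47), the 5 Rpt subunits lie close to it, and 3 Rpn subunits in grey did not pass the test. With TMM-like scaling that median moves to -0.05, and Pros26.4 and Rpt4 move to 0.01 and 0.03.

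The Rpn subunits were the most mixed class. Of 10, 7 were called lower and 3 did not pass, with a median log2 fold change of -0.71 and an SD of 0.33 among them. Under each of TMM-like, quantile and upper quartile scaling 3 of the 10 remained called, against 20.2%, 23.4% and 23.5% of all genes. These 3 were Rpn11, Rpn9 and Rpn7, which are subunits of the lid.

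Rpn11, which cuts the ubiquitin chain off the substrate, was at 22.4, 18.5, 25.3 and 20.5 FPKM in GFP-positive cells and at 56.6, 65.8, 38.5 and 63.8 FPKM in all cells. The lowest all-cell library, that of sort 3, still exceeded every GFP-positive one. Its log2 fold change was -1.31 (limma SE 0.19, adjusted p = 2.5e-04), more negative than that of any subunit but Pros35. Rpn7 was at 19.4, 12.99, 13.3 and 17.7 FPKM against 36.4, 33.8, 28.2 and 41.4 FPKM, also without overlap, and differed by -1.10 (limma SE 0.19, adjusted p = 6.7e-04).

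Rpn9, also of the lid, was at 13.4, 14.5, 11.8 and 14.5 FPKM in GFP-positive cells and at 32.9, 35.8, 27.1 and 38.5 FPKM in all cells. The GFP-positive libraries were close to each other and all below the all-cell libraries, with a log2 fold change of -1.24 (limma SE 0.16, adjusted p = 1.4e-04). Its locus is among those that overlap another gene, so that this level carries the limit given with the isoforms.

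Rpn6, a lid subunit that braces the lid against the core, was the most abundant of the 28 subunits. It was at 49.0, 67.3, 77.5 and 100.7 FPKM in GFP-positive cells and at 87.5, 102, 118 and 100.1 FPKM in all cells. Sorts 1 to 3 differed in the same direction, while in sort 4 the GFP-positive library equalled the all-cell library to within 1 FPKM. Its log2 fold change was -0.50 (limma SE 0.20, adjusted p = 0.0558). With the sort as a replicate block it passed (limma adjusted p = 0.0195), in a fit that called 44.6% of all genes lower and 13.2% higher, as it did without the GFP-positive library of sort 4 (adjusted p = 0.0107).

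Rpn3, another lid subunit, did not pass either. It was at 15.4, 13.8, 18.7 and 33.1 FPKM in GFP-positive cells and at 29.7, 26.7, 17.4 and 41.2 FPKM in all cells. The GFP-positive library of sort 4 stood high, the all-cell library of sort 3 low, and the groups overlapped. In limma it differed by -0.51 (limma SE 0.30, adjusted p = 0.181), and -0.76 without the GFP-positive library of sort 4 (adjusted p = 0.0333).

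Pros54, the ubiquitin receptor Rpn10, had the log2 fold change nearest to 0. Its levels were 28.13, 25.3, 31.5 and 16.4 FPKM against 31.8, 29.8, 26.8 and 37.8 FPKM. In sort 3 the GFP-positive library was the higher, and it was in sort 4 that the libraries were far apart. Its log2 difference was -0.33 (limma SE 0.21, adjusted p = 0.201), which is above the median of all genes tested.

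Of the other Rpn subunits, Rpn5 and Rpn12 of the lid differed by -0.74 and -0.73, and Rpn1 and Rpn2, the large scaffolds of the base, by -0.70 and -0.63. All 4 were called lower with the groups apart, at means of 20.2, 22.2, 13.6 and 17.8 FPKM in GFP-positive cells. Rpn1 and Rpn2 missed the threshold without sort 1 (limma adjusted p = 0.0517 and 0.0511) and without sort 2 (0.0571 and 0.063).

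The sum over members gave the balance of the particles within each library, a ratio that a common factor for all genes of a library does not move. Summed over the 13 matched core subunits, levels were 163 ± 23.9 FPKM in GFP-positive cells and 357 ± 59.7 FPKM in all cells (SD, n = 4 each), or 45.6%. For the 15 Rpt and Rpn subunits they were 402 ± 31.2 and 648 ± 73.5 FPKM, or 62.0%. The ratio of core to regulatory sums was 0.421, 0.355, 0.408 and 0.433 in GFP-positive cells of sorts 1 to 4 and 0.598, 0.487, 0.522 and 0.593 in all cells. It was lower in GFP-positive cells in 4 of 4 sorts, and the groups did not overlap. Since the ratio is a score over the members, it is given as a description.

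The sorts agreed in direction but not in size. In sorts 1 to 4, 28, 28, 26 and 27 of the 28 subunits were lower in the GFP-positive library, with medians of -0.89, -0.94, -0.56 and -1.01 on the log2(FPKM + 1) scale. The medians of all genes tested were -0.47, -0.52, -0.34 and -0.54, so that sort 3 had the smallest difference for both. The all-cell library of sort 3 was the lowest of its group for 21 of the 28 subunits and that of sort 4 the highest for 19. Among GFP-positive libraries, that of sort 4 was the highest for 13. Class medians of the alpha subunits were -1.17, -1.26, -0.57 and -1.26 in the 4 sorts and those of the Rpt subunits -0.46, -0.65, -0.51 and -0.62.

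**Figure D3:**
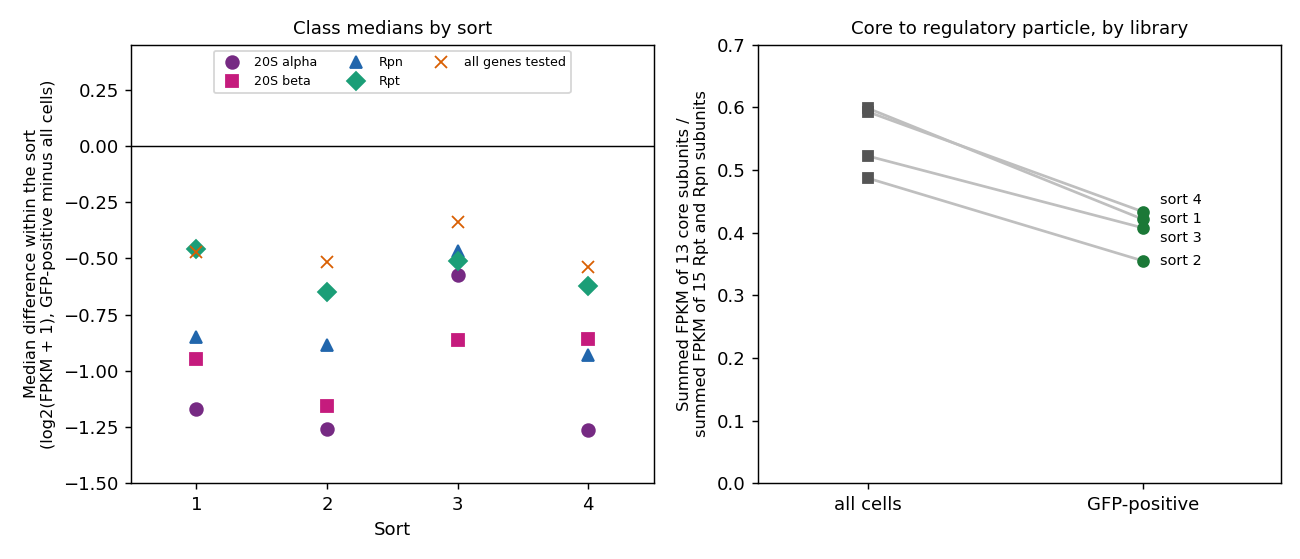
Left, the median difference within each of the 4 sorts on the log2(FPKM + 1) scale, GFP-positive minus all cells, for the 4 subunit classes and for all genes tested. Right, the ratio of summed core FPKM to summed Rpt and Rpn FPKM in each library, with a line joining the libraries of a sort; all 4 lines fall, from between 0.487 and 0.598 to between 0.355 and 0.433.

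The order of subunit levels was largely shared between the groups. Over the 28 subunits the log2 mean levels in GFP-positive cells and in all cells correlated with Pearson's r of 0.93 and Spearman's rho of 0.89, a description across genes that share libraries and depth. Means of the highest and lowest subunit differed 8.33-fold in all cells and 13.2-fold in GFP-positive cells. Core subunits have shorter transcripts than the others, with an exonic length of 852 to 1176 bases against 995 to 3325, taken from the Release 6 annotation. Over the 28 subunits, log2 fold change and exonic length correlated with r of 0.47 and rho of 0.64, again a description. Over all genes tested the median log2 fold change was -0.48 at lengths of 800 to 1200 bases and -0.50 at 1200 to 1600 bases. By level, it was -0.57 for genes at a mean of 10 to 20 FPKM, of which 48.5% were called lower. It was -0.38 at 20 to 40 FPKM and -0.22 at 40 to 80 FPKM. The matched Rpt subunits, with a median of -0.54, had means over all libraries of 29.4 to 50.6 FPKM.

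Isoforms were tested in the same way, and 27.1% of all isoforms tested were called lower. Prosalpha5-RA, Prosbeta5-RA and Prosalpha1-RB were called lower at -1.25, -1.19 and -0.89. Prosalpha1-RA, at -1.55, was not called (limma SE 0.63, adjusted p = 0.0835), and in the all-cell library of sort 4 it exceeded Prosalpha1-RB, with 13.5 against 10.8 FPKM. Loci of 12 of the 28 subunits overlap the locus of another gene on dm3. They are Prosalpha1, Pros25, Prosbeta1, Prosbeta2, Prosbeta3, Rpt1, Pros26.4, Rpt4, Pros45, Rpn6, Rpn7 and Rpn9. Use of strand in the counting is not given in the sources used here, so that fragments in shared bases may not have been told apart. Of these 12 subunits 11 were called lower as genes, and of the other 16 subunits 14, against 38.7% of all genes. That share was not counted apart for genes with and without overlapping loci, so an effect of overlap was not tested. Rpn6 was split between Rpn6-RB and Rpn6-RC. Rpn6-RB was at 27.5, 18.4, 22.4 and 30.5 FPKM against 37.9, 40.7, 44.1 and 39.3 FPKM, without overlap, and fell by 0.71 on the log2 scale (limma SE 0.18, adjusted p = 0.013). Rpn6-RC overlapped between the groups, with -0.39 (limma SE 0.30, adjusted p = 0.334). Whether the isoforms of Rpn6 differ in their response was not tested. The isoforms Prosbeta7-RA and Prosbeta7-RB did not pass (adjusted p = 0.184 and 0.188).

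Most of the 13 paralogs were near the limit of detection, and limma called none of the 3 it tested. The 3 were Rpn12R, Rpt3R and Rpt6R, and the other 10 did not pass the filter on low values. Of the 3 tested, 0 had an unadjusted p under 0.05. At least 1 FPKM was reached in any library by 6 of the 13, and 9 were listed at 0 in 1 or more libraries. The highest value of a paralog was 8.43 FPKM, whereas the lowest of any constitutive subunit was 3.80 FPKM.

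Rpt3R, the paralog of the ATPase Rpt3, was at 0.963, 8.43, 2.07 and 0.648 FPKM in GFP-positive cells and at 3.22, 1.36, 0.942 and 3.50 FPKM in all cells. The GFP-positive library of sort 2 stood out and the groups overlapped, with a log2 fold change of 0.03 (limma SE 0.53, adjusted p = 0.971). In the authors' deposited table, which compares the libraries of each sort by Cuffdiff, Rpt3R was called higher in sort 2 (log2 fold change 2.63, q = 0.0249) and in no other sort. Rpt6R, the paralog of Rpt6, was at 3.69, 1.12, 0.565 and 1.397 FPKM against 3.62, 1.07, 0.0539 and 1.08 FPKM, with sort 1 high in both groups. It differed by 0.21 (limma SE 0.47, adjusted p = 0.736).

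Rpn12R, the paralog of Rpn12, was at 1.10, 1.93, 2.42 and 0.535 FPKM against 1.14, 1.51, 1.17 and 1.39 FPKM and differed by 0.06 (limma SE 0.30, adjusted p = 0.895). The remaining paralogs at 1 FPKM or more were so in 1 or 2 libraries. Pros28.1A, a paralog of alpha4, was at 0.905, 0, 0 and 1.42 FPKM against 0.214, 0.177, 0.0927 and 1.90 FPKM. Prosbeta2R2, a paralog of beta2, was at 1.38, 0.0836, 0.137 and 0.321 FPKM against 0.796, 0.115, 0.2996 and 0.510 FPKM. Prosbeta4R1, a paralog of beta4, was at 0 in all GFP-positive libraries and at 1.29, 0, 0.112 and 0 FPKM in all cells. For these 3 the libraries of both groups overlap, and no fold change is given.

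The other 7 paralogs, Rpt4R, Prosalpha3T, Prosalpha6T, Pros28.1B, Prosbeta2R1, Prosbeta4R2 and Prosbeta5R, stayed under 1 FPKM in all 8 libraries. By the estimated depth, 3 fragments on a transcript of 1 kb were worth 0.318 to 0.454 FPKM in GFP-positive and 0.246 to 0.298 FPKM in all-cell libraries, so that lower levels were not detectable with any precision. The summed level of 8 testis markers was 3.67 to 15.4 FPKM in GFP-positive cells and 6.03 to 21.0 FPKM in all cells, and 0 of the 5 that passed the filter were called by limma.

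**Figure D4:**
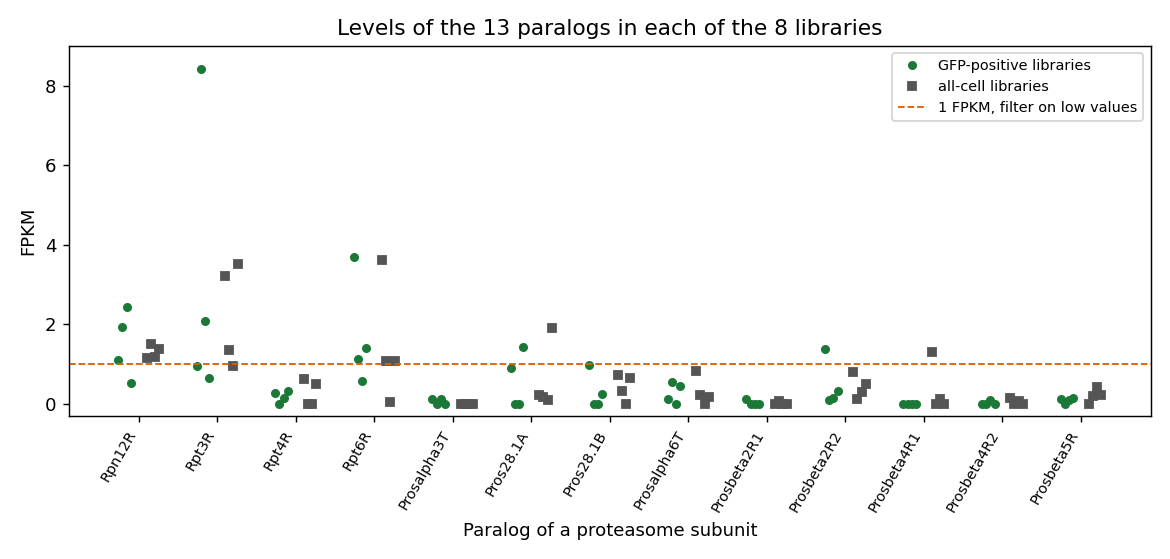
FPKM of the 13 paralogs in every library, with circles for the 4 GFP-positive and squares for the 4 all-cell libraries and a dashed line at 1 FPKM. Except for Rpn12R, Rpt3R and Rpt6R the points lie mostly under the line, and the point at 8.43 FPKM is Rpt3R in the GFP-positive library of sort 2.

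The authors' deposited table holds a Cuffdiff comparison of the GFP-positive with the all-cell library of each sort. The authors' deposited table called 3, 0, 1 and 3 of the 28 subunits lower in sorts 1 to 4, at a q-value of 0.05 or less, and 0 higher in each. Among all genes tested here, the authors' deposited table called 14.2%, 13.1%, 8.82% and 11.9% lower and 5.36%, 6.28%, 6.28% and 3.95% higher. The constitutive subunits called in the authors' deposited table were Pros29, Prosalpha5 and Pros26 in sort 1, Prosbeta5 in sort 3 and Prosalpha1, Pros35 and Rpn9 in sort 4. That table compares single libraries, whereas the limma calls rest on the spread over 4.

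Of the subunits that carry other symbols in the gene table, Tbp-1, Mov34 and CG13779 were in the lists described with the processing. The others were looked up by RefSeq name after the values had been seen. Tbp-1, the ATPase Rpt5, fell by 0.88 on the log2 scale (limma SE 0.19, adjusted p = 0.00322), at 11.9 to 21.3 FPKM in GFP-positive and 27.3 to 36.9 FPKM in all cells. Mov34, the lid subunit Rpn8 and partner of Rpn11, fell by 0.81 (limma SE 0.26, adjusted p = 0.0218), and CG13779, the small lid subunit Sem1, by 1.11 (limma SE 0.29, adjusted p = 0.00773). CG17331 (beta4) and CG13349, the ubiquitin receptor Rpn13, were at -0.51 and -0.48 and did not pass (limma adjusted p = 0.12 and 0.0646). CG6789, which RefSeq names Rpn13R, was at 0.840 to 2.71 FPKM against 2.40 to 6.15 FPKM and was called lower at -1.004 (limma adjusted p = 0.0241). Of the 7 such genes tested, 5 were called lower as deposited, CG30382 among them, against 38.7% of all genes. Under TMM-like scaling 1 of the 7 was called lower, against 20.2% of all genes. The 7 include the paralogs CG30382 and CG6789, and CG30382 shares its values with Prosalpha1 to within 2.32%. With the sort as a replicate block 6 of the 7 were called lower, against 44.6% of all genes, CG17331 being added (limma adjusted p = 0.0357).

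Genes that act with the proteasome were taken from lists whose choice is described with the processing. The COP9 signalosome, a complex related to the lid that removes Nedd8 from cullins, was lower throughout. All 8 subunits tested were called lower, against 38.7% of all genes, with a median log2 fold change of -1.34. The groups did not overlap in any of the 8, with GFP-positive cells lower, which was so for 34.8% of all genes. The ninth, CSN1a, was listed at 0 in every library. The catalytic subunit CSN5 was at 3.46 to 6.98 FPKM in GFP-positive cells and 15.9 to 21.9 FPKM in all cells. This was a log2 fold change of -1.75 (limma SE 0.23, adjusted p = 1.4e-04). The scaffolds alien (-1.71), CSN4 (-1.54) and CSN3 (-1.53) followed. Under TMM-like scaling and quantile normalization 7 of the 8 were called lower, and 8 under upper quartile and ERCC scaling. The shares of all genes called lower were 20.2%, 23.4%, 23.5% and 52.2%, in that order.

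Of 15 genes of assembly and regulation tested, 6 were called lower and 0 higher, with a median of -0.32. The share called lower, 6 of 15, was near the background of 38.7%. REG, the fly PA28 gamma activator that caps the core without ubiquitin, was at 34.0 to 37.5 FPKM against 81.1 to 119 FPKM, -1.45 (limma SE 0.14, adjusted p = 2.8e-05). Pomp, the chaperone of core assembly, was at 11.6 to 19.6 FPKM against 28.3 to 44.5 FPKM, -1.34 (limma SE 0.20, adjusted p = 3.6e-04). CG13319 and Uch-L3, which RefSeq names Uch-L5 and which trims ubiquitin chains at the 19S particle, followed at -1.33 and -1.18. The transcription factor cnc and its partner maf-S, whose vertebrate relatives drive proteasome genes, and Keap1, which restrains cnc, did not pass at 0.14, -0.05 and -0.02 (limma adjusted p = 0.443, 0.838 and 0.938). These genes were named after their values had been seen. Under TMM-like and upper quartile scaling the median of the list turned to 0.10 and 0.02, with 3 and 4 called lower and 1 called higher in each. Of all genes, 20.2% and 23.5% were then called lower and 20.6% and 18.4% higher.

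Of 8 genes of the p97 unfoldase and its cofactors, 6 were called lower, against 38.7% of all genes, with a median of -0.74. CG4673, which RefSeq names Npl4, was at -1.37, Plap at -1.29, p47 at -1.09 and Ufd1-like at -0.80, all cofactors of p97. The unfoldase TER94 itself was at 58.4 to 89.2 FPKM against 102 to 123 FPKM, -0.63 (limma SE 0.15, adjusted p = 0.0045). Under TMM-like scaling 3 of the 8 were called lower and 1 higher, under quantile normalization 4 lower and under upper quartile scaling 3 lower. Of all genes, 20.2%, 23.4% and 23.5% were then called lower, and 20.6% higher under TMM-like scaling.

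Of 38 ubiquitin system genes tested, 17 were called lower and 0 higher, with a median of -0.36, which is above that of all genes tested. The share called lower was 44.7%, against the background of 38.7%. With the replicate block 20 were called lower, where ben, RpS27A and RpL40 were added and the background was 44.6%. fzy, an activator of the anaphase-promoting complex, was at -2.02 (limma SE 0.26, adjusted p = 1.2e-04), cdc16, a subunit of that complex, at -1.53, Uba1, the ubiquitin-activating enzyme, at -1.54, and UbcD2, a conjugating enzyme, at -1.48. The polyubiquitin genes Ubi-p63E and Ubi-p5E did not pass, at 0.15 each. The median of this list changed sign with scaling. Under TMM-like scaling 7 were called lower and 9 higher with a median of 0.15, against 20.2% and 20.6% of all genes. Under upper quartile scaling 9 and 6 were called with a median of 0.05, against 23.5% and 18.4%. Under quantile normalization 14 and 2 were called with a median of -0.22, against 23.4% and 18.6%.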

How the data were processed

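RNA of 8 libraries was analysed, 4 GFP-positive and 4 all-cell, 1 of each per sort. Per the file headers, the deposited gene and isoform tables give FPKM for each library in its own column. Per the submitters' processing notes the authors worked on build dm3 with Cuffdiff 1.3.0, Cufflinks 1.3.0 and TopHat 1.4.0. The annotation release, the parameters and the strand setting were not given in the sources used here. Per the labels' protocols, 5 ng of total RNA was amplified with ERCC spike-in Mix 2. The authors' deposited tables also hold Cuffdiff log2 fold changes and q-values, and a mean and SD of the GFP-positive columns (the SD as a score), which were not used.

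The members and gene lists, the rule for naming genes and the tests were chosen with earlier results of these data known. The rule names the 2 most abundant subunits of each class, the 3 largest and 3 smallest log2 fold changes, every paralog at 1 FPKM in any library and up to 4 called genes per list; further genes were picked with their values in view. The listed name gft was not matched to a row.

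Genes at 1 FPKM or more in at least 4 of 8 libraries were tested by a two-sided limma fit (version 3.58.1, R 4.3.3) to log2(FPKM + 1) that lets the variance follow the level, with a Benjamini-Hochberg threshold of 0.05 over all genes tested. Such fold changes understate low genes. All 28 constitutive subunits passed this filter with 1 FPKM or more in all 8 libraries. The procedure was also run on simulated data with independent noise for each gene and library. With no shift shared by a library or sort, that run says nothing on scaling or pairing. Nothing in the labels says that the 4 sorts came from separate cages of flies, so p-values measure the spread between sorts.

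Depth was estimated from steps of FPKM times length in intronless loci: 6610000 to 9450000 fragments in GFP-positive and 10060000 to 12180000 in all-cell libraries. Constitutive subunits then rest on at least 30.7 fragments per library, median 287. Floors of 3 fragments cover counting error only. Exonic lengths and RefSeq names come from Release 6 and no coordinates from it are given.

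The labels tie libraries to sorts, which pairs them; deviations from the group means correlated within sorts 1 to 4 by 0.44, 0.10, 0.41 and 0.17. The sort as a block was an alternative, as were pseudocounts, filters, scalings, array weights, a minimum fold change, summed isoforms and leaving out libraries or sorts. Leaving out members with overlapping loci was added after seeing the data. Promoter motifs, which the design listed, were not run, and no sequences are printed here. The isoforms of Rpn9 are not reported here.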

Additional observations from a re-analysis of the deposited data

Results flagged for a closer look

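In groups of 4 libraries a highest or lowest value was flagged where its gap to the nearest other value exceeded the critical share of the group's range in Dixon's test. Of 72 groups, those of the 34 members that reached 1 FPKM in any library, of their summed level and of the ratio of core to regulatory sums, 2 met this, and chance flags about 1 in 20 groups. Pros28.1A was at 1.90 FPKM in the all-cell library of sort 4, with the other all-cell libraries at 0.0927 to 0.214 FPKM; its locus overlaps CG42322. Prosbeta4R1 was at 1.29 FPKM in the all-cell library of sort 1, with the others at 0 to 0.112 FPKM. No constitutive subunit was flagged.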

How the results depend on the processing

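As deposited, 25 subunits were called lower; 13 were under quantile normalization, 12 under upper quartile scaling and 11 under TMM-like scaling, with medians of -0.48, -0.45 and -0.35, and the median under ERCC scaling was -1.71. The ratio of a single ERCC spike-in between the libraries of a sort ranged from -1.88 to 4.08 on the log2 scale in sort 4, so that ERCC scaling is uncertain. Under TMM-like scaling Pros26.4 was at 0.0073 and Rpt4 at 0.033 (log2), neither called. Against a minimum log2 fold change of 1, 0 subunits were called, and 506 of all genes (4.62%) were lower. Without a filter on low values the subunits' median lay -0.55 from the median gene. Without members whose loci overlap another gene or that share a copy, 14 of 16 were called lower, against 38.7% of all genes. Leaving out 1 library gave 21 to 27 called subunits and leaving out a sort gave 18 to 25, with medians of -0.92 to -0.79 and medians relative to all genes of -0.45 to -0.30. Of the 10943 genes tested, 4233 were called lower with all libraries. Without 1 library 3400 to 4411 were, and without a sort 2978 to 4039. In these settings 17 of the 25 calls were kept in all, and Prosbeta7, Pros26.4, Rpt4, Rpt3, Pros26, Prosbeta3, Rpn1 and Rpn2 lost theirs in at least 1. With the sort as a replicate block 26 were called lower (44.6% of all genes), which added Rpn6 and changed no other call among the 28; outside them it added CG17331 (adjusted p = 0.0357) and 3 ubiquitin system genes to the listed genes called lower. No subunit was called higher under any alternative. Depth limits the paralogs, and the cell makeup of the groups was not tested as a cause.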
